A study of Sus scrofa with 6 samples.

Results

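Transcripts of the casein kinase 1 (CK1) and casein kinase 2 (CK2) families were followed in porcine oocytes by RNA sequencing (RNA-seq). The members were the 9 genes CSNK1A1, CSNK1D, CSNK1E, CSNK1G1, CSNK1G2, CSNK1G3, CSNK2A1, CSNK2A2 and CSNK2B, found by their symbols among the 29861 genes of the deposited table. A row was present for 8 of the 9, since no row had the symbol CSNK1E, so no gene was analysed under that symbol. Of these 8 genes, 6 had a mean of at least 1 FPKM (fragments scaled to transcript length and to library size) over the samples and were tested among 4713 genes that passed the same minimum. CSNK1D and CSNK1G1, with means of 0.716 and 0.139 FPKM, fell below it and are given as values.

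The 6 samples came from 3 groups of 2, all of them pooled oocytes of Sus scrofa cultured for in vitro maturation. Control oocytes had neither heat nor a supplement. Oocytes of the heat-stressed group (HS) were held at a raised temperature for 24 h. The NMN-supplemented group (HS + NMN) was heated in the same way with nicotinamide mononucleotide, a precursor of NAD+, in the medium. The labels place the samples at the germinal vesicle (GV) stage and 24 h, whereas the methods of the study place the sequenced oocytes at metaphase II, so the stage was not settled. Breed and animal age were not given in the sources used here. Nothing states that the 2 samples of a group were separate collections, so the P-values measure only the spread between these samples, which may be technical.

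CK1 and CK2 belong to different groups of protein kinases despite the shared name, and both are serine/threonine kinases that are largely active without an activating signal. CK1 enzymes work as monomers and act in Wnt signalling, in the circadian clock and in the phosphorylation of meiotic cohesin. CK2 is a tetramer of catalytic alpha or alpha prime subunits, encoded by CSNK2A1 and CSNK2A2, held together by a dimer of the regulatory beta subunit encoded by CSNK2B, and it phosphorylates a very large set of proteins at acidic sites.

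The RNA carried the markers of oocytes. Of 20 oocyte markers 17 reached a mean of 1 FPKM, and their summed FPKM was 3234 to 3901 in the 6 samples. None of the cumulus or granulosa cell markers reached 1 FPKM, their summed FPKM was 0.398 to 1.43, and AMH, INHA and AMHR2 were listed at 0 in all samples. The 6 blood or immune markers summed to at most 0.540 FPKM and the 6 theca or stroma markers to at most 0.569 FPKM. Genes encoded by mitochondria held 61.7% to 74.7% of the summed FPKM. Read counts were not used here, and the FPKM value of a single fragment gave a depth of 0.732 to 1.16 times that of the first control sample. In bulk RNA, fewer oocytes and less RNA per oocyte cannot be told apart.

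Sequences of the family members are shown first, because stretches shared between paralogs bear on how reads are assigned and because the CSNK2B symbol covers unlike transcripts. The shared runs below are shorter than the reads described in the study's methods. All sequences are RefSeq sequences of the Sscrofa11.1 build, which is also the build of the loci in the table, written in the direction of transcription. The catalytic CK2 genes, CSNK2A1 (chr17:34692960-34748067, plus strand) and CSNK2A2 (chr6:19975030-20016768, minus strand), had 76.5% identity over their aligned coding sequences. Their longest shared run was 18 bases, in capitals below with 15 bases on either side, and each window spans 2 exons, at chr17:34722223-34724556 and chr6:20015789-20016622 with the intron between them.
CSNK2A1: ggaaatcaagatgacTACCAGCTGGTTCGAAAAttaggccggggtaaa
CSNK2A2: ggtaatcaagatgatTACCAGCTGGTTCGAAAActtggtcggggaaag

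Among the CK1 members with a row, coding sequences were 60.9% to 73.2% identical in pairs and shared runs of at most 20 bases. CSNK1D (chr12:768856-794495, plus strand) had a closer relative outside the members, LOC100523244 (chr5:9594461-9620483, plus strand), which the annotation describes only as a casein kinase I. LOC100523244 lies between KCNJ4 and TMEM184B, and whether it is the pig CSNK1E was not tested. The 2 coding sequences were 84.4% identical and shared a run of 86 bases, in capitals below, at chr12:786582-786697 and chr5:9610816-9610931 with the flanks, inside a single exon of each gene.
CSNK1D: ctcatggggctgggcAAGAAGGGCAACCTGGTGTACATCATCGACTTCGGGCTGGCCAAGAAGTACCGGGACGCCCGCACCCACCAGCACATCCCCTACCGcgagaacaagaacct
LOC100523244: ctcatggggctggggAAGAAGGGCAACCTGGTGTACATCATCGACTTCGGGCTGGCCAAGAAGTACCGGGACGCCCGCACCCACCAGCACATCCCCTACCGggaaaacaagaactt

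The symbol CSNK2B (chr7:23781194-23787914, plus strand) covers unlike transcripts in the annotation, and the table gives a single FPKM for them. Those with 7 exons, of 810 and 983 bases, encode CK2 beta over 648 bases. The transcript with 3 exons, of 1750 bases, starts near their end at chr7:23785769-23787914 and has a coding sequence of 654 bases. The coding sequences had 0 genome positions in common and shared no run longer than 11 bases. Their first 60 coding bases are given with the start codon in capitals, at chr7:23781815-23781874 and chr7:23786742-23786801. How much of the CSNK2B value came from each transcript was not tested.
CSNK2B, 7-exon transcript: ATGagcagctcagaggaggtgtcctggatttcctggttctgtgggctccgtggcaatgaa
CSNK2B, 3-exon transcript: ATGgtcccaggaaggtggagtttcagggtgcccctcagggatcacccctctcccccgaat

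A copy of the CK2 beta coding sequence also lay on chromosome 1, at chr1:242626162-242626785, with 85.1% identity over 99.2% of its length. It falls in LOC100738298, which was listed at 0 FPKM in all 6 samples. Of the other members, CSNK1A1 had 1 copy of 77.8% identity over at least 50% of its coding sequence, and CSNK1D matched the gene LOC100523244 above over 64.0% of its coding sequence at 89.99% identity. For the rest, the search reported no match of that length outside their own locus. It did not report the known paralogs CSNK2A1 and CSNK2A2, 76.5% identical over 1050 aligned coding bases. It therefore cannot show that matches of such identity are absent. No annotated gene overlapped a member. The nearest gene to CSNK2B, GPANK1 on the opposite strand, ended 358 bases before it.

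The 6 tested members lay between percentiles 20.3 and 64.1 of the mean FPKM of tested genes, and FPKM values, which are per length, order the genes. Among the members, the CK2 genes stood highest in control oocytes, with CSNK2B at 4.66 ± 1.81 FPKM (SD, n = 2), CSNK2A2 at 4.48 ± 0.0716 and CSNK2A1 at 4.05 ± 0.286. CSNK1G3 (3.09 ± 0.307), CSNK1A1 (2.42 ± 0.162), CSNK1G2 (2.15 ± 0.0753), CSNK1D (1.18 ± 0.136) and CSNK1G1 (0.0987 ± 0.0121) followed. The samples of neighbours in this order were apart from each other except for CSNK2B and CSNK2A2, which overlapped. In heat-stressed oocytes CSNK1G3 led, but its samples overlapped those of CSNK2A1, and those of CSNK2A1 overlapped those of CSNK2A2. CSNK2B overlapped CSNK1A1 there. In NMN-supplemented oocytes CSNK1G3 and CSNK2A1 again overlapped at the top, followed by CSNK2A2, CSNK2B and CSNK1A1.

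**Figure D1:**
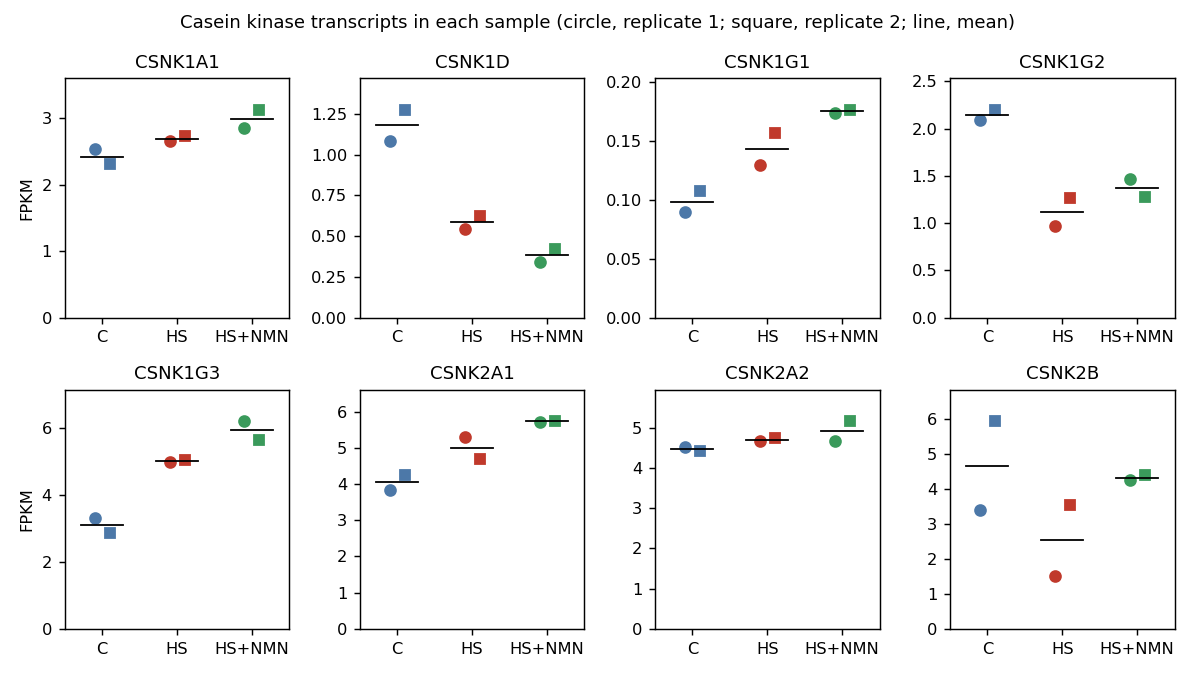
FPKM (linear axis from 0, own range per panel) of the 8 casein kinase genes in oocytes of the control (C), heat-stressed (HS) and supplemented (HS+NMN) groups, with circles for replicate 1, squares for replicate 2 and lines at group means. CSNK1G3 lay at 2.88 to 3.31 FPKM in control and 4.99 to 6.22 in the heated groups, CSNK1D and CSNK1G2 lay highest in control, and the replicates of CSNK2B were far apart in control and heat-stressed oocytes.

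The comparison of heat-stressed with control oocytes asks what heat does to these transcripts. CSNK1G3 was higher after heat and CSNK1G2 was lower, both of which encode membrane-anchored gamma kinases of CK1. These were 2 of the 6 tested members with an unadjusted P under 0.05 in limma, beside 22.8% of all tested genes. No member passed at an adjusted P under 0.05, and neither did any gene (0% of 4713).

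CSNK1G3 (chr2:127013736-127129547, plus strand) acts at the plasma membrane and can phosphorylate the Wnt co-receptor LRP6. Its FPKM was 3.31 and 2.88 in control oocytes and 4.99 and 5.05 in heat-stressed oocytes. Both heat-stressed samples were above both controls, with means of 5.02 ± 0.0434 against 3.09 ± 0.307 (SD, n = 2), a ratio of 1.62. On the log2(FPKM + 1) scale the difference was 0.56 (SE 0.12), with adjusted P = 0.122 in limma. Scaled to the same sum of non-mitochondrial FPKM it was 0.27 and no longer passed the unadjusted threshold (adjusted P = 0.963), where the median of all tested genes moved to -0.22. In that sum the pseudogene LOC100513953 held 37.0% of the first heat-stressed sample and was listed at 0 in the others, and without it the difference was 0.53 and passed it.

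CSNK1G2 (chr2:76573979-76609631, minus strand) is a paralog on the same chromosome with 71.9% coding identity to CSNK1G3. It had 2.09 and 2.201 FPKM in control oocytes and 0.970 and 1.27 in heat-stressed oocytes. The heat-stressed samples both lay below the controls, at 0.521 times the control mean. Its log2 difference was -0.57 (SE 0.13), with adjusted P = 0.127 in limma.

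The third gamma gene, CSNK1G1 (chr1:107690049-107884054, plus strand), had the lowest level of the members. Control samples had 0.0901 and 0.107 FPKM, HS samples 0.130 and 0.157, and HS + NMN samples 0.174 and 0.177. The groups did not overlap in these values. With a minimum mean of 0.1 FPKM in place of 1, its log2 differences were 0.06, 0.04 and 0.10 in the comparisons of HS with control, HS + NMN with HS and HS + NMN with control, and none passed (adjusted P = 0.604, adjusted P = 0.786 and adjusted P = 0.276 in limma).

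CSNK1D encodes CK1 delta, a kinase known for phosphorylating PER proteins of the clock. It was listed at 1.09 and 1.28 FPKM in the controls, at 0.544 and 0.625 under HS and at 0.339 and 0.424 under HS + NMN. No group overlapped another, with control highest and HS + NMN lowest. Because of the minimum it was not among the tested members. With a minimum of 0.1 FPKM its log2 difference was -0.46 (SE 0.10) after heat, with an unadjusted P under 0.05 and adjusted P = 0.195 in limma. The close relative LOC100523244 stood at 5.81 and 7.70 FPKM in the controls and 6.04 and 6.59 under HS, which overlapped, and its log2 difference was -0.07 (SE 0.15, adjusted P = 0.779). How the authors' counting divided reads of the shared run between these genes was not tested.

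CSNK1A1 (chr2:150612845-150662431, minus strand) encodes CK1 alpha, which primes beta-catenin for the destruction complex. Its FPKM stepped from 2.53 and 2.30 in the controls to 2.65 and 2.73 under HS and 2.86 and 3.13 under HS + NMN. The groups did not overlap, but the steps were small. Its log2 difference after heat was 0.11, with a 95% interval from -0.17 to 0.39 (adjusted P = 0.577).

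Heat-stressed and control oocytes were also compared by the sum and the makeup of the CK1 family. The summed FPKM was 9.11 and 8.76 in the controls and 9.29 and 9.83 under HS, a log2 difference of 0.10. With each sample scaled to the same non-mitochondrial sum it was -0.28, or 0.058 with LOC100513953 left out of that sum. Its exact permutation P was 0.333, the smallest that 2 against 2 samples can give. CSNK1G3 held 34.6% ± 2.48 of the sum in control and 52.6% ± 1.67 in heat-stressed oocytes (SD, n = 2), while CSNK1G2 held 24.0% ± 1.51 and 11.7% ± 1.71. CSNK1D held 13.2% ± 1.88 and 6.11% ± 0.352, and CSNK1A1 held 27.0% ± 1.07 and 28.2% ± 0.541. CSNK1E is not part of these sums, and neither is LOC100523244, also annotated as a casein kinase I. Its mean was 6.76 ± 1.34 FPKM in control, 6.32 ± 0.388 in heat-stressed and 7.64 ± 0.164 in NMN-supplemented oocytes (SD, n = 2). Each of these means was above that of every member, so the shares hold only among the 5 CK1 members with a row. In NMN-supplemented oocytes the shares were 54.6% ± 2.25 for CSNK1G3, 12.6% ± 0.924 for CSNK1G2, 3.52% ± 0.641 for CSNK1D and 27.6% ± 2.47 for CSNK1A1.

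**Figure D2:**
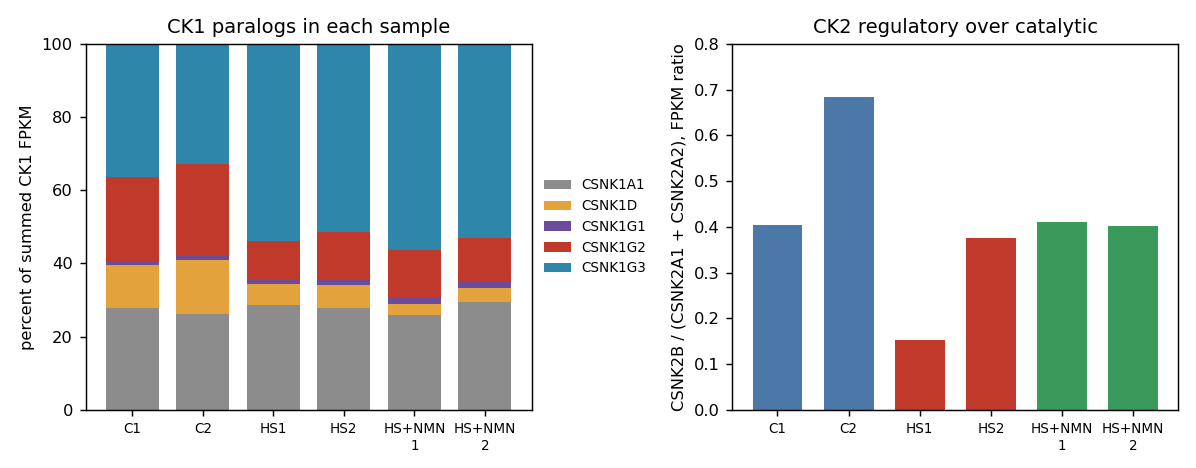
Left, percent of the summed FPKM of the 5 CK1 genes with a row that each gene held in each sample (C, control; HS, heat-stressed; HS+NMN, NMN-supplemented); right, ratio of CSNK2B FPKM to the summed FPKM of CSNK2A1 and CSNK2A2 in each sample. CSNK1G3 held 32.8% to 36.3% in control and 51.4% to 56.2% in the other samples, and the CSNK2B ratio ran from 0.153 in a heat-stressed sample to 0.685 in a control sample.

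The CK2 genes did not pass the test after heat. CSNK2A1, the alpha catalytic subunit, had 3.85 and 4.25 FPKM in the controls and 5.30 and 4.69 under HS. The groups did not overlap, and the log2 difference was 0.25 (SE 0.12), with adjusted P = 0.272. CSNK2A2, the alpha prime subunit, had 4.53 and 4.43 FPKM in the controls and 4.65 and 4.73 under HS. Its log2 difference of 0.06 had a 95% interval from -0.22 to 0.33. The summed catalytic FPKM was 8.38 and 8.68 in the controls and 9.96 and 9.42 under HS (log2 difference 0.18, exact permutation P = 0.333). With the same non-mitochondrial sum this difference was -0.19, or 0.14 with LOC100513953 left out.

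CSNK2B, the regulatory subunit that stabilizes the tetramer, was among the genes that the study also measured by RT-PCR, which its text describes as chosen at random. The study states that RT-PCR verified its RNA-seq data, and its text prints no RT-PCR value for a single gene. The FPKM of CSNK2B was 3.39 and 5.94 in the controls and 1.53 and 3.55 under HS. The second heat-stressed sample was above the first control sample, so the groups overlapped. The means were 4.66 ± 1.81 and 2.54 ± 1.43 (SD, n = 2). The log2 difference of -0.70 (SE 0.34) had a 95% interval from -1.55 to 0.14, with adjusted P = 0.279 in limma. With the same non-mitochondrial sum it was -0.92, at an unadjusted P under 0.05, or -0.72 and above 0.05 with LOC100513953 left out of that sum. Without the first control sample it was -1.04 (adjusted P = 0.230), and without the second heat-stressed sample -1.13 (adjusted P = 0.210), both at an unadjusted P under 0.05. It was -0.37 without the second control sample and -0.28 without the first heat-stressed sample, and missed 0.05 in both.

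Set against its catalytic partners within each sample, CSNK2B stood at 0.404 and 0.685 times their summed FPKM in the controls, 0.153 and 0.376 under HS and 0.411 and 0.402 under HS + NMN. This ratio does not depend on the scaling of a sample. Both heat-stressed values were the lowest of the 6, and a control sample was the highest. The log2 difference was -1.13 for heat-stressed against control, with exact permutation P = 0.333, and -0.48 without the first heat-stressed sample.

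The comparison of NMN-supplemented with heat-stressed oocytes asks what NMN does under heat. None of the 6 tested members had an unadjusted P under 0.05 in limma (0 of 6), beside 13.6% of all tested genes, and no gene had an adjusted P under 0.05 (0%). The heat-stressed samples enter both this comparison and the first, so the comparisons are not independent.

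CSNK2B had the largest difference of the tested members, with 4.27 and 4.39 FPKM in NMN-supplemented oocytes against 1.53 and 3.55 in heat-stressed oocytes. The groups did not overlap. The log2 difference was 0.65 (SE 0.34) with a 95% interval from -0.19 to 1.498 (adjusted P = 0.398 in limma). Without the second heat-stressed sample it was 1.08, at an unadjusted P under 0.05 (adjusted P = 0.2803), and without the first 0.23. The ratio to the catalytic subunits differed by 0.76 on the log2 scale, with exact permutation P = 0.333, and by 0.11 without the first heat-stressed sample.

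The other tested members had positive log2 differences with NMN and did not pass the test, and those of CSNK1A1 and CSNK2A2 turned to -0.044 and -0.079 once trends over GC content and length were removed. CSNK1G3 had 6.22 and 5.65 FPKM against 4.99 and 5.05, a log2 difference of 0.20 (SE 0.12, adjusted P = 0.434). CSNK2A1 had 5.73 and 5.74 FPKM against 5.30 and 4.69, a log2 difference of 0.17 (adjusted P = 0.486). CSNK1G2 had 1.47 and 1.27 FPKM against 0.970 and 1.27, and its second samples were nearly level. Its log2 difference of 0.16 had a 95% interval from -0.16 to 0.49. CSNK1A1 and CSNK2A2 differed by 0.11 and 0.05. The median over the 6 members was 0.17 and that of all tested genes 0.08. For CSNK1D, below the minimum, the log2 difference was -0.20 (SE 0.10, adjusted P = 0.538).

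The comparison of NMN-supplemented with control oocytes sets heat with NMN against no treatment. CSNK1G3 and CSNK2A1 rose and CSNK1G2 fell at an unadjusted P under 0.05 in limma, which is 3 of 6 tested members beside 41.3% of all tested genes. At an adjusted P under 0.05 there was 1 of 6, CSNK1G3, beside 21.5% of genes. CSNK1G3 had 6.22 and 5.65 FPKM against 3.31 and 2.88 in control, a ratio of 1.92. Its log2 difference was 0.76 (SE 0.12), with adjusted P = 0.0219 in limma. Its adjusted P was 0.0210 to 0.281 over the alternatives. It was above 0.05 with a minimum mean of 0.1 FPKM (0.0505) and with no minimum (0.0823). The same held with the same non-mitochondrial sum (0.281) and with GC and length trends removed (0.0834). It was also above 0.05 without the second control sample, the first or the second NMN-supplemented sample, where the differences were 0.68, 0.70 and 0.82.

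CSNK2A1 had 5.73 and 5.74 FPKM against 3.85 and 4.25, a ratio of 1.42. Both NMN-supplemented samples were above the controls and almost equal. Its log2 difference was 0.42 (SE 0.12), with adjusted P = 0.0567 in limma. The unadjusted P was above 0.05 without the first control sample, where the difference was 0.36, and without either NMN-supplemented sample, where it was 0.42 and 0.41.

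CSNK1G2, at 1.47 and 1.27 FPKM against 2.09 and 2.201, was at 0.638 times the control level. Its log2 difference was -0.41 (SE 0.13), with adjusted P = 0.0735 in limma. Leaving out any single control or NMN-supplemented sample took the unadjusted P above 0.05, with differences of -0.47 to -0.35. CSNK2B lay within the control range, and its log2 difference of -0.05 had a wide 95% interval, from -0.90 to 0.79. CSNK1D was at 0.323 times the control level, with a log2 difference of -0.66 (SE 0.10) at the lower minimum (adjusted P = 0.0505). CSNK1A1 and CSNK2A2 differed by 0.22 and 0.11 and did not pass. The summed CK1 FPKM was 11.1 and 10.7 and the summed CK2 catalytic FPKM 10.4 and 10.9 in NMN-supplemented oocytes, above all control values.

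**Figure D3:**
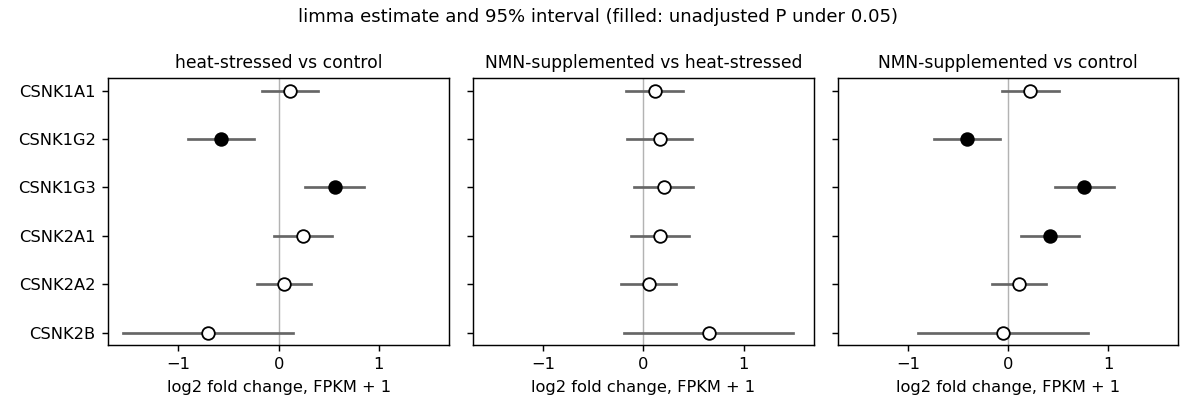
limma log2 fold changes on the log2(FPKM + 1) scale (points) with 95% intervals (lines) for the 6 tested casein kinase genes in the 3 comparisons, filled where the unadjusted P was under 0.05. CSNK1G2 at -0.57 and CSNK1G3 at 0.56 were filled for heat-stressed against control, no gene for NMN-supplemented against heat-stressed, and 3 genes for NMN-supplemented against control, with the widest intervals for CSNK2B.

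Transcript composition moved with these differences. The GC content of the longest annotated transcript was 40.0% for CSNK1G3, 44.2% for CSNK1A1 and CSNK2A1, 45.5% for CSNK2A2, 47.0% for CSNK1G1, 54.6% for CSNK2B, 60.02% for CSNK1G2 and 66.3% for CSNK1D. The CSNK2B value, here and in the trend removal, is that of the 3-exon transcript of 1750 bases, and the 7-exon transcripts of 810 and 983 bases had 53.3% and 53.8%. The members with the highest GC were lower after heat and the member with the lowest GC was higher. Over the 4713 tested genes, the median log2 difference after heat was -0.21 in the fifth with the highest GC and 0.25 in the fifth with the lowest, and Spearman's rho across genes, which are not independent replicates, was -0.48. LOC100523244, with 59.8% GC, differed by -0.07.

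With the trends over GC content and transcript length removed, a step chosen after the data were seen, the log2 differences after heat were 0.30 for CSNK1G3 (adjusted P = 0.273) and -0.38 for CSNK1G2 (adjusted P = 0.277), both still at an unadjusted P under 0.05. For NMN-supplemented against control oocytes CSNK1G3 kept an unadjusted P under 0.05 at 0.36, with adjusted P = 0.0834. CSNK2A1 at 0.15 (adjusted P = 0.450) and CSNK1G2 at -0.25 (adjusted P = 0.253) no longer passed there. CSNK1D, with the highest GC of the members, was below the minimum FPKM and was not fitted with the trends removed.

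**Figure D4:**
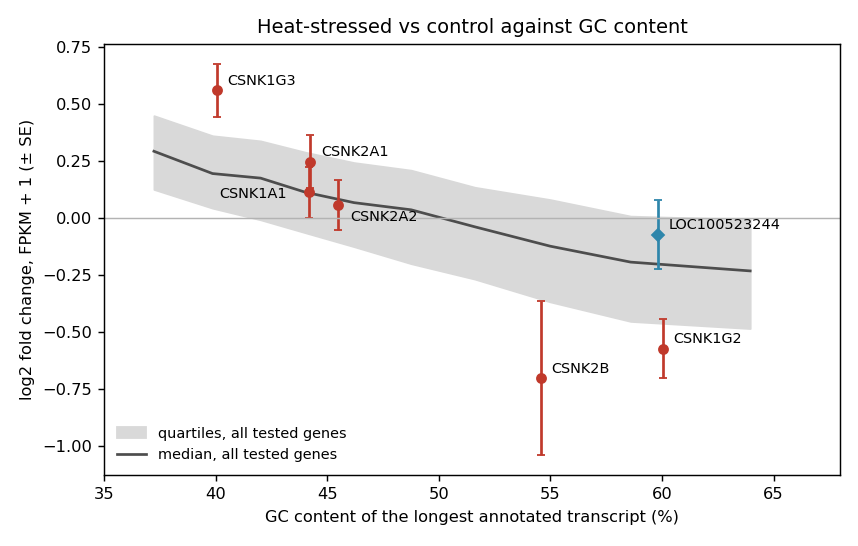
log2 fold change of heat-stressed against control oocytes on the log2(FPKM + 1) scale (vertical axis, bars SE) against GC content of the longest annotated transcript (horizontal axis, percent) for the 6 tested casein kinase genes (circles) and LOC100523244 (diamond), over the median and quartiles of all tested genes in 10 bins of GC content. CSNK1G3 at 40.0% GC lay above the quartile band, and CSNK2B at 54.6% and CSNK1G2 at 60.02% lay below it.

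Across the 6 samples the members did not move as a single unit. As a description over 6 samples that share their groups and scaling, Pearson's r of log2(FPKM + 1) was 0.90 between CSNK1G3 and CSNK2A1 and -0.80 between CSNK1G3 and CSNK1G2. CSNK2B had r of -0.17 with CSNK2A1 and -0.04 with CSNK2A2, its catalytic partners, and 0.68 with CSNK1G2.

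The tested genes most like CSNK1G3 were ZC2HC1A, QKI and SP3 (r = 0.998, 0.997 and 0.997), and 326 genes reached 0.95. For CSNK1G2 they were HAX1, ELK1 and JPT2 (0.993, 0.991 and 0.991), and 26 genes reached 0.95. JPT2 met the minimum mean of 1 FPKM only through its control values of 1.81 and 2.04. Its heated samples all lay below 1 FPKM, so the filter itself favoured this likeness. FAM204A, CHMP1B and FUNDC1 were nearest to CSNK2A1 (0.996, 0.996 and 0.988), where 77 genes reached 0.95. CSNK2B was matched best by LUC7L3, NPM3 and TOP2A (0.983, 0.978 and 0.9753), and just 10 genes reached 0.95. NPM3, a histone chaperone of the nucleoplasmin family, had 2.60 and 5.35 FPKM in the controls, 1.21 and 3.53 under HS and 4.10 and 3.53 under HS + NMN, with the same low first heat-stressed sample as CSNK2B.

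Partners and substrates of the kinases were taken from 6 lists and counted at an unadjusted P under 0.05, and none had an adjusted P under 0.05 after heat or with NMN under heat. In HS + NMN against control 21.5% of all tested genes had one. The lists held 1 to 21 tested genes, and each count is a description beside the share of all tested genes that passed. Of 12 tested Wnt genes, 1 rose and 1 fell after heat, 1 rose with NMN under heat, and 4 rose and 1 fell in NMN-supplemented against control oocytes, 1 of them at an adjusted P under 0.05. The shares of all tested genes were 22.8%, 13.6% and 41.3%. CTNNB1, the beta-catenin primed by CK1 alpha, had 10.015 and 10.016 FPKM in the controls, 11.7 and 14.8 under HS and 16.5 and 15.1 under HS + NMN. Its log2 differences were 0.37 after heat (adjusted P = 0.215) and 0.61 for HS + NMN against control (adjusted P = 0.0389). The first passed at an unadjusted P under 0.05 in 7 of 18 alternatives and missed it when either control sample, the second heat-stressed sample or either NMN-supplemented sample was left out, and the second missed it with the same non-mitochondrial sum. GSK3A, a kinase of the GSK3 step that follows CK1 on beta-catenin, fell by 0.51 after heat, from 7.53 and 8.01 to 5.83 and 4.53 FPKM. It did not pass once GC and length trends were removed or when the second control or second heat-stressed sample was left out. Its paralog GSK3B was on the list but below the minimum mean FPKM, and was not tested. DVL2, a CK1 substrate in the Wnt receptor complex, rose by 0.45 with NMN under heat (adjusted P = 0.340), and did not pass with the same non-mitochondrial sum or without the first heat-stressed sample or either NMN-supplemented sample.

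Among the 4 tested clock genes 1 rose and 1 fell after heat, as in HS + NMN against control, where 1 had an adjusted P under 0.05, and none passed in HS + NMN against HS (all tested genes 22.8%, 41.3% and 13.6% in that order). PER1, a substrate of CK1 delta, had 1.95 and 1.56 FPKM in the controls, 0.505 and 0.675 under HS and 0.567 and 1.003 under HS + NMN. Its log2 difference after heat was -0.79 (adjusted P = 0.125). PER1 met the minimum mean of 1 FPKM only through its higher control values, and both HS samples lay below it. The filter itself thus favoured a lower value after heat for this gene.

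Of 10 tested genes of meiotic cohesin and its protection, 1 rose after heat, 1 with NMN under heat and 3 in HS + NMN against control, 1 of these at an adjusted P under 0.05, and none fell. These counts lie below the shares of 22.8%, 13.6% and 41.3% of all tested genes. SGO2, which shields centromeric cohesin, had 4.62 and 3.50 FPKM in the controls, 5.47 and 6.53 under HS and 8.61 and 7.70 under HS + NMN, and its log2 difference of HS + NMN against control was 0.86 (adjusted P = 0.0272). ESPL1, the separase that cleaves cohesin, rose by 0.89 in that comparison (adjusted P = 0.0516), and the phosphatase subunit PPP2R1A rose by 0.35 with NMN under heat (adjusted P = 0.355). PPP2R1A passed in 7 of 17 alternatives, and missed the threshold when any sample but the second heat-stressed one was left out, with only the compared groups, with the same median FPKM or the same non-mitochondrial sum, and with GC and length trends removed.

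Among 4 tested CK1 regulators and anchors, 2 rose after heat, 1 with NMN under heat and 2 in HS + NMN against control (all tested genes 22.8%, 13.6% and 41.3%), the last 2 also at an adjusted P under 0.05. DDX3X, an RNA helicase that activates CK1 in Wnt signalling, had 36.2 and 32.1 FPKM in the controls, 42.6 and 46.1 under HS and 59.9 and 52.6 under HS + NMN, and differed by 0.70 on the log2 scale between HS + NMN and control (adjusted P = 0.0260). With NMN under heat it rose by 0.33 (adjusted P = 0.358), which passed in 9 of 18 alternatives and was lost with the replicate block, with quantile normalization, with the same non-mitochondrial sum, with GC and length trends removed and when any heat-stressed or NMN-supplemented sample was left out. After heat its difference of 0.37 passed in 12 of 18, and was lost with that sum, with the trends removed and without the second control sample or either heat-stressed sample. YAP1, a CK1 substrate, rose by 0.49 after heat and 0.76 in HS + NMN against control, and only the first missed the threshold in any alternative tried, with the same non-mitochondrial sum.

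Of 21 tested CK2 partners and substrates, 0 rose and 5 fell after heat, 1 rose and 3 fell with NMN under heat, and 2 rose and 9 fell in HS + NMN against control, 5 of them at an adjusted P under 0.05. The all-gene shares, in either direction, were 22.8%, 13.6% and 41.3%, so that the count after heat was close to that of all genes. By direction, 598 of all 4713 tested genes rose and 476 fell after heat. With NMN under heat 337 rose and 304 fell, and 1208 rose and 740 fell in HS + NMN against control. The median log2 differences of the list were -0.03, -0.10 and -0.13, beside 0.05, 0.08 and 0.11 over all tested genes. With GC and length trends removed, 5 of the list fell after heat, 5 with NMN under heat and 10 in HS + NMN against control. Of all tested genes 737, 574 and 1519 then passed, of which 352, 207 and 754 rose. With NMN under heat and the same non-mitochondrial sum 0 of the list fell, where 269 of all tested genes passed and 182 of these rose. Without the first heat-stressed sample the list's median with NMN under heat was -0.013, beside 0.088 over all tested genes. Without the first NMN-supplemented sample it was -0.11, beside 0.063. PLK1, a mitotic and meiotic kinase, had 7.15 and 6.68 FPKM in the controls, 3.38 and 3.30 under HS and 3.92 and 3.64 under HS + NMN. Its log2 difference after heat was -0.87 (adjusted P = 0.111). CDC34, a ubiquitin-conjugating enzyme phosphorylated by CK2, fell by 0.63 after heat, and missed the threshold with GC and length trends removed.

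HSP90AA1, a chaperone that CK2 phosphorylates and that also responds to heat, had 60.05 and 57.5 FPKM in the controls, 42.6 and 41.3 under HS and 23.5 and 33.1 under HS + NMN. It fell by 0.57 with NMN under heat (adjusted P = 0.339) and by 1.05 in HS + NMN against control (adjusted P = 0.0237). EIF3J, a translation initiation factor subunit, fell by 0.41 with NMN under heat. HSP90AA1 with NMN under heat missed the threshold when either heat-stressed sample or the first NMN-supplemented sample was left out, EIF3J when any heat-stressed or NMN-supplemented sample was left out, and both with the same non-mitochondrial sum. The list of related kinases had a single tested gene, VRK2, which did not pass in any comparison.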

How the data were processed

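RNA from porcine oocytes was sequenced in 6 samples, grouped by their labels. Reads were trimmed with cutadapt and aligned with tophat2 to the pig genome, and the authors deposited FPKM values of 29861 genes, for which the submitters' processing notes name Cufflinks 2.2.1, Cuffnorm and Cuffdiff. The log2 fold changes, p-values and q-values that the authors also deposited were not used. Read counts were not used here, so depth is known only relative to a sample.

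FPKM were log2-transformed after adding 1. Genes with a mean of at least 1 FPKM were fitted by group in limma 3.58.1 (R 4.3.3) over all 6 samples at once, with a trended empirical Bayes variance and two-sided tests. Benjamini-Hochberg adjustment covered the 4713 tested genes. Single ratios and sums were compared by two-sided exact permutation tests. Python 3.11.15, pandas 2.3.3, scipy 1.17.1, biopython 1.88 and matplotlib 3.10.9 served the other steps, and minimap2 2.31 searched for copies of coding sequences. A log2 fold change on the FPKM + 1 scale understates changes of low genes. The fit was checked on simulated data.

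Every member was named, with the 2 genes of smallest P under 0.05 in each partner list and comparison, and the 3 genes most correlated with CSNK2B and with each member that had a P under 0.05. A gene that this rule selects is not reported here. The members and lists were chosen with earlier results of these data known. Alternatives were a pseudocount of 0.1 FPKM, minimum means of 0.1 or 5 FPKM or none, quantile, median and non-mitochondrial scaling, the replicate block, only the compared groups, no variance trend, and leaving out each sample. Same-numbered samples did not deviate together (correlations of -0.032, 0.008 and -0.014).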

Additional observations from a re-analysis of the deposited data

How the results depend on the processing

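The call of CSNK1G2 in heat-stressed against control oocytes and that of CSNK1G3 in NMN-supplemented against control oocytes had an unadjusted P under 0.05 under every alternative tried. No member passes a minimum mean of 5 FPKM, so that setting gave no value. Over all alternatives to the members' fold changes, 275 had the same direction and side of the threshold, 12 were weaker, 7 stronger and 12 reversed. Several settings, such as the replicate block, no variance trend and lower minima, leave the fold change itself unaltered. Most member comparisons were also above the threshold in the main fit, so the 275 is not a measure of stability. For NMN-supplemented against heat-stressed oocytes, 1 member (CSNK2B) passed with the same non-mitochondrial sum and with the replicate block, beside 269 and 527 of all 4713 tested genes. When a sample was left out its difference ranged from 0.23 to 1.08. For NMN-supplemented against control oocytes, 1 (CSNK1G3) passed with that sum and with GC and length trends removed, beside 789 and 1519 of all tested genes, against 1948 in the main fit. When a sample was left out, the differences there were 0.68 to 0.84 for CSNK1G3, 0.36 to 0.47 for CSNK2A1 and -0.47 to -0.35 for CSNK1G2. With the same non-mitochondrial sum, the log2 differences after heat were -0.14 for CSNK1A1, -0.051 for CSNK2A1 and -0.24 for CSNK2A2, or 0.085, 0.21 and 0.025 with LOC100513953 left out of the sum, and -0.92 for CSNK2B (unadjusted P under 0.05), or -0.72 (above 0.05). With that sum the medians of all tested genes were -0.22, 0.35 and 0.13 in the 3 comparisons. The summed CK1 and CK2 catalytic FPKM then differed by -0.28 and -0.19 after heat and by 0.57 and 0.53 with NMN under heat, or by 0.058 and 0.14 and by 0.24 and 0.19 with LOC100513953 left out, a setting chosen after seeing the data. With GC and length trends removed, also chosen after seeing the data, CSNK1A1 differed by -0.051, -0.044 and -0.095 and CSNK2A2 by -0.090, -0.079 and -0.17 in the 3 comparisons, and CSNK2B by 0.17 in NMN-supplemented against control oocytes. When a sample was left out, CSNK2A2 with NMN under heat ranged from -0.0082 to 0.11, and CSNK2B in NMN-supplemented against control oocytes from -0.38 to 0.28. The causes of these shifts were not tested.

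With the replicate block CSNK2B had an unadjusted P under 0.05 in limma after heat (-0.70, adjusted P = 0.222) and with NMN under heat (0.65, adjusted P = 0.438), and no other call of a member changed. Same-numbered samples share only a number. The genes with an adjusted P under 0.05 in NMN-supplemented against control oocytes numbered 1015, and 445 with the block, 335 with GC and length trends removed, 281 and 558 with the same non-mitochondrial sum with and without LOC100513953, 546 and 86 with minimum means of 5 and 0.1 FPKM, 0 with no minimum, and 0 to 798 when a sample was left out. Of genes at an unadjusted P under 0.05 after heat, 598 of 1074 were higher, and 34 of 562 with the same non-mitochondrial sum and 333 of 821 with LOC100513953 left out of it. With NMN under heat 337 of 641 were higher, against 182 of 269 with that sum, 218 of 528 with quantile normalization and 207 of 574 with the trends removed. In NMN-supplemented against control oocytes 1208 of 1948 were higher, against 279 of 789 with that sum and 754 of 1519 with the trends removed. At 2 samples a group, an exact permutation test cannot go below 0.333.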
